A study of Homo sapiens with 3 samples.

Results

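Antisense RNAs are transcripts made from the DNA strand opposite to that of a neighbouring gene, and most carry the name of that gene with the ending AS and a digit. The 261 antisense RNAs described here were chosen by their deposited TPM, which had to reach 1 in any of 3 RNA-seq libraries, out of 1713 antisense-named genes and 56632 genes in all. TPM is a transcript level that accounts for length and has an equal sum in each library. Since these levels made the choice, they are given as a description with no test.

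The libraries came from MCF10Ca1h, an established tumour-forming human breast cancer cell line of the MCF10 epithelial series, grown in DMEM/F12 medium with 5% horse serum. The NT library was of untreated cells, with no time stated. The GSK484 and CON libraries were of cells exposed for 72 h to GSK484 or to a control compound. PADI4, the enzyme that GSK484 inhibits, converts arginine in histones and other proteins to citrulline. No dose is given, and each group had 1 library, so every difference below is between single libraries and has no replicate check. The libraries held 70555229 (NT), 92980847 (CON) and 77220120 (GSK484) expected counts. All 9 breast epithelial markers examined were present, with KRT8 between 3741 and 4062 TPM and EPCAM between 311 and 334 TPM. The leukocyte genes PTPRC and CD3E and the fibroblast gene DCN had a count of 0 in every library.

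An antisense RNA can be read from inside its partner gene, so that the mature RNAs share bases in opposite orientation, or from a start close to the partner's own start and away from it. Some are known to alter the transcription, splicing or stability of the partner RNA, and others act elsewhere in the cell or have no known role. Many are short-lived, since the nuclear RNA exosome, a complex that degrades RNA from its end, removes a large part of such transcripts. In an RNA library, reads of an overlapping pair can be told apart only if the strand is kept and used in counting. The kit was a stranded one, per the labels' protocols, but the strand setting of the counting is not given in the sources used here.

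PHLDA1-AS1 (ENSG00000257453) shows how closely such a pair can share sequence, and among the antisense RNAs of at least 1 CPM it held the widest difference between libraries. Its annotated RNA has 2 exons on the plus strand of GRCh38, chr12:76030494-76030594 and chr12:76030911-76031378, and the first exon and the start of the second are printed here from the GENCODE 29 transcript. Capitals mark the 16 bases that lie outside PHLDA1 exons, and all other bases of its 569 are complementary to PHLDA1 RNA.
PHLDA1-AS1: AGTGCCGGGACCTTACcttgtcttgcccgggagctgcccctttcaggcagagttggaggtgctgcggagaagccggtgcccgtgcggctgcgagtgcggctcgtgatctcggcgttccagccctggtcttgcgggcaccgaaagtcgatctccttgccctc
Thus 553 of 569 bases, or 97.2%, could also give reads of the partner.

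The opposite arrangement is a pair of genes that start back to back. Of 257 pairs, 77 were found on opposite strands in a RefSeq table of promoters (GRCh38.p14), and 15 of these had starts facing away from each other within 250 bases. The table held 188 of the antisense RNAs and 215 of the partner entries. The 4 stretches below lie between the starts of such pairs and touch no annotated UTR. They are printed along the strand of the antisense RNA, which begins just after the last base. Capitals mark matches, on either strand, to GGGCGG (the core of the GC box) or CCAAT (the CCAAT box), and neighbouring or overlapping matches run together.
KTN1-AS1: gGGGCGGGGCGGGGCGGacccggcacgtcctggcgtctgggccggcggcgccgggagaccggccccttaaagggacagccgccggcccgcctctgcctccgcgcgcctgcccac
SBNO1-AS1: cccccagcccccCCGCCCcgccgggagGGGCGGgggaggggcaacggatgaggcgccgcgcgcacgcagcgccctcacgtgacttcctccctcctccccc
TIAM1-AS1: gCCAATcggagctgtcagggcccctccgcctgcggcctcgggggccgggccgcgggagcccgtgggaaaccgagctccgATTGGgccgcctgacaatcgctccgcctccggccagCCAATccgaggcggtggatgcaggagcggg
TRIM52-AS1: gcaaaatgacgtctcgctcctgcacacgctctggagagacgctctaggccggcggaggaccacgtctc

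The KTN1-AS1 stretch, chr14:55580093-55580206 on the minus strand, had 114 bases, 82.5% G or C, and 3 GGGCGG matches. The SBNO1-AS1 stretch, chr12:123364848-123364947 on the plus strand, had 100 bases and 2 such matches. In the TIAM1-AS1 stretch, chr21:31559088-31559232 on the plus strand, 145 bases held 3 CCAAT matches and no GGGCGG. The TRIM52-AS1 stretch, chr5:181261144-181261211 on the plus strand, had 68 bases and none of these motifs. No TATAAA was found in the 4 stretches. Among all 35116 promoters of the table, 33.3% held GGGCGG on either strand within the last 114 bases before the start, and 23.0% held CCAAT within the last 145, so both motifs are common at this distance. GENCODE 29 and RefSeq place some starts differently, and in GENCODE 29 an exon of KTN1-AS1 reaches into KTN1.

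Most of the antisense RNAs were present at low levels. Their median mean level over the libraries was 2.15 TPM. For 37 of them the mean was at least 10 TPM, for 3 at least 50 TPM, and for 124 under 2 TPM. The 3 libraries gave nearly the same median, 2.18 TPM in NT and 2.23 TPM in CON and GSK484. Together the antisense RNAs took 0.105% of the counts in NT, 0.108% in CON and 0.108% in GSK484. In all 3 libraries 199 reached 1 TPM, and 28 did so in a single library, 8 in NT, 12 in CON and 8 in GSK484.

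At the edge of the rule, DMTF1-AS1 and IDH1-AS1 were just inside with a highest value of 1.01 TPM. Just outside were GLIPR1-AS1 at 0.98 and FARP1-AS1 at 0.97 TPM.

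A TPM of 1 can rest on few reads where the RNA is short. The median effective length of the antisense RNAs was 726 bases, beside 2134 bases for 11778 protein-coding genes of at least 1 CPM, which is the count scaled to library size. Accordingly 81 antisense RNAs stayed below 1 CPM in every library and 180 reached it. The lengths above come from unlike minimums, TPM for the antisense RNAs and CPM for the protein-coding genes, so they are not a like comparison. LIPE-AS1 stood at 12.7 TPM in NT, 25.8 in CON and 8.86 in GSK484, yet these came from 22, 66 and 23 counts at an effective length of 28.6 to 39.0 bases. ABHD15-AS1 went from 0 TPM in NT and 0.44 in CON to 4.22 in GSK484 on counts of 0, 1 and 7.9. No direction is read from values of this kind.

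The highest mean level was that of PRR34-AS1, with 62.4 TPM in NT, 71.9 in CON and 68.2 in GSK484. It overlaps the little-expressed gene PRR34, which had at most 0.09 TPM. RCC2-AS1 stood at 56.1, 71.8 and 64.8 TPM in the same order of libraries. Every exon base of RCC2-AS1 lies within exons of RCC2, a regulator of chromosome alignment in mitosis, at 91.3 to 95.6 TPM. RCC2-AS1 made up 1.88% of the pair's counts in NT, 2.58% in CON and 2.30% in GSK484. Whether its level came from the RNA or from the division of RCC2 reads was not tested. SPINT1-AS1 had 48.8, 54.7 and 52.6 TPM, beside 160 to 178 TPM for SPINT1, an inhibitor of serine proteases on the epithelial cell surface. PRR34-AS1, RCC2-AS1 and SPINT1-AS1 all had divided counts, as did their partners.

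TUBA1B-AS1 was lowest in NT with 29.7 TPM, then 41.8 in CON and 52.5 in GSK484, beside 2409 to 2545 TPM of TUBA1B, an alpha-tubulin. Of its exon bases 80.2% lie over TUBA1B exons, and the counts of both genes were divided. It made up 0.349% of the pair's counts in NT, 0.495% in CON and 0.617% in GSK484. Whether its values came from the RNA or from the division of TUBA1B reads was not tested. VPS9D1-AS1 had 35.8, 39.5 and 43.1 TPM, and its partner VPS9D1 2.15 to 2.39 TPM. Levels between 35.1 and 39.0 TPM were found for THUMPD3-AS1, named for a tRNA methyltransferase gene that had 35.1 to 37.3 TPM. EPB41L4A-AS1 lay between 29.03 and 37.9 TPM, and ELFN1-AS1 between 24.96 and 31.2 TPM. For ELFN1-AS1 all reads were assigned without division, and its partner ELFN1 had at most 0.42 TPM. ARAP1-AS1, ZNF232-AS1 and PPP1R14B-AS1 completed the 12 highest, with values between 21.0 and 27.7 TPM. Each of them had divided counts, and 99.2% of the exon bases of ARAP1-AS1 lie over ARAP1 exons.

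By reads rather than by length-adjusted level, OIP5-AS1 led with 109 CPM in NT, 90.1 in CON and 91.9 under GSK484. This long RNA, also called Cyrano, is known for binding a microRNA. It was highest in NT as scaled here, with a log2 fold for CON against NT of -0.28 that changed sign to 0.13 with a trend of fold on GC content and length removed. In TPM it had 34.1, 28.5 and 30.4, close to the 25.1 to 29.1 TPM of OIP5, a gene of centromere assembly.

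Partner genes were usually the more abundant of the pair. The median partner level was 10.1 TPM and the median ratio of partner to antisense RNA was 4.03. In 180 of 257 pairs the partner had the higher mean TPM, in 89 by more than 10 times, and in 77 pairs the antisense RNA did, in 36 by more than 10 times. The antisense RNA was the higher in 73 pairs in NT, 83 in CON and 76 in GSK484. Across 253 pairs with a partner above 0, Pearson's r of the log2 mean levels was 0.07 and Spearman's rank correlation 0.05, a description across genes that share the same 3 libraries. The antisense RNAs were chosen by a TPM minimum and the partners were not, which cuts the range of antisense levels. Whether the levels of a pair are related is therefore not read from these values.

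**Figure D1:**
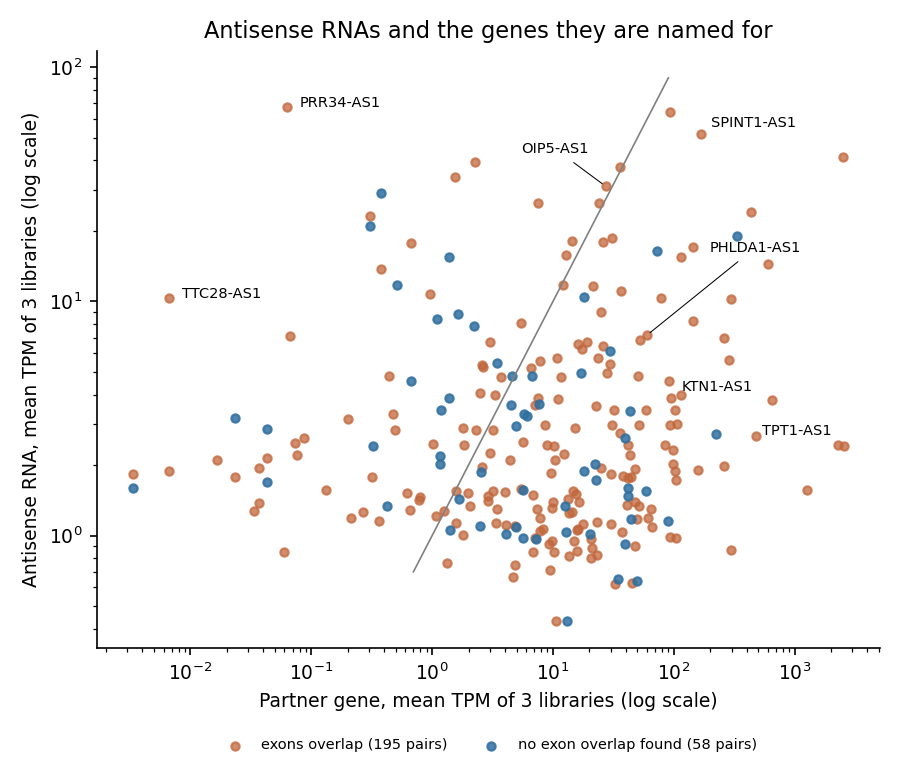
Mean TPM over the 3 libraries of each antisense RNA (vertical, log scale) against the gene it is named for (horizontal, log scale). Each point is 1 pair, orange where annotated exons overlap and blue where no exon overlap was found. The grey line marks equal levels, and points lie on both sides of it with no common slope. The choice by TPM limits the vertical range.

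Pairs at the antisense end of this range had partners that were nearly silent. TTC28-AS1 had 10.5 TPM in NT, 9.39 in CON and 11.1 in GSK484, while TTC28 had at most 0.02 TPM. OR2A1-AS1 stood between 1.77 and 1.94 TPM beside an olfactory receptor gene at no more than 0.01 TPM. SLC38A4-AS1 (1.11 to 2.27 TPM), DCST1-AS1 (1.54 to 2.49 TPM) and CALCRL-AS1 (2.77 to 3.73 TPM) were likewise beside partners of at most 0.03 TPM. With PRR34-AS1 these were the 6 pairs with the highest ratio. FGD5-AS1, with 11.1 to 13.1 TPM, is named for FGD5, a gene of endothelial cells whose count was 0 in every library, which allows up to 3 counts in each.

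At the other end stood housekeeping genes of very high level. TPT1, a growth-linked protein made in large amounts, had 2524 to 2635 TPM and TPT1-AS1 2.24 to 2.70. RPL30, a ribosomal protein gene, had 2182 to 2471 TPM and RPL30-AS1 2.40 to 2.47. MIF, a cytokine gene, had 1164 to 1325 TPM and MIF-AS1 1.07 in NT, 1.76 in CON and 1.87 in GSK484. CD63-AS1 and BSG-AS1, both under 5 TPM beside genes of a tetraspanin and of basigin, were also among the 6 lowest ratios.

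How far the reads of a gene were divided went with how its exons lie. With GENCODE 29 (GRCh38), 254 pairs could be placed, 252 of them on opposite strands. Exons of both genes overlapped in 196 pairs, and in 34 the genes overlapped but their exons did not. Another 15 pairs lay head to head within 1000 bases and 7 lay farther apart. FAM131B-AS2 and HILPDA-AS1 were on the strand of their partner, and LIF-AS2, C10orf95-AS1 and ZBTB11-AS1 were not placed with their partner. SLC9A3R1-AS1, HOXA-AS2, HOXA-AS3 and HOXC-AS1 had no partner gene by that name. Among the 196 pairs the median overlap was 292.5 bases, or 15.9% of the antisense exon bases, and in 31 pairs it was over 50%.

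RSEM, which made the deposited counts, divides a read among the transcripts it matches, so a gene that shares no read has whole counts. Counts whole within 0.005 in all 3 libraries were found for 94 of the 261 antisense RNAs, or 36.0%. All 40 antisense RNAs whose exons overlap no other gene had whole counts. Of the 190 with overlap on the other strand only, 48 did, or 25.3%. The others had reads that were divided although GENCODE 29 places no exon of another gene over them on their own strand. Over all genes of at least 1 CPM whose deposited transcripts were all found in GENCODE 29, 86.2% of 4625 without exon overlap had whole counts, against 38.4% of 2620 with overlap on the other strand only. The counts of overlapping pairs are therefore not read as specific to a strand here.

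**Figure D2:**
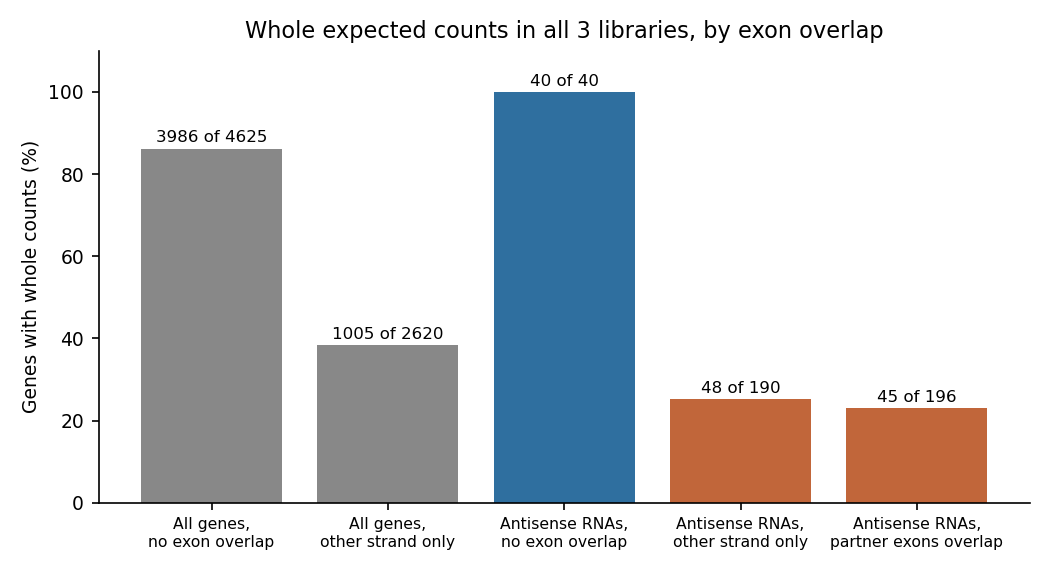
Share of genes whose expected counts were whole in all 3 libraries (vertical, percent), by exon overlap in GENCODE 29 (horizontal). Grey bars are genes of at least 1 CPM whose deposited transcripts were all found in GENCODE 29, coloured bars the antisense RNAs, and the number of genes stands above each bar. The bar of antisense RNAs without exon overlap reaches 100%, and the bars with overlap on the other strand lie below 40%.

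The 10 antisense RNAs with the most reads among those with whole counts were therefore the cleanest to follow. FGD5-AS1 led them with 38.0 CPM in NT, 36.9 in CON and 33.3 under GSK484. ELFN1-AS1 had 9.54, 13.1 and 12.1 CPM, KRT10-AS1 11.98, 14.01 and 11.5, and ARRDC1-AS1 10.4, 11.6 and 11.5. KRT10-AS1, named for a keratin gene, is annotated as protein-coding in GENCODE 29. OTUD6B-AS1, whose start lies 7 bases from that of the deubiquitinase gene OTUD6B, had 11.5, 10.4 and 10.2 CPM. PRKCQ-AS1, MNX1-AS1, MORC2-AS1, ZNF407-AS1 and KTN1-AS1 lay between 4.52 and 9.25 CPM in every library. All 10 stayed within a factor of 1.5 between any pair of libraries.

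The first comparison, GSK484 against CON, is between cells with inhibitor and cells with control compound after equal exposure. PHLDA1-AS1 was higher in GSK484 and ELF3-AS1 lower, and no other antisense RNA passed the rule used in place of a test. That rule asked for a fold of at least 2, a 95% exact conditional binomial interval of the ratio that excludes no difference, and at least 1 CPM in 1 of both libraries. The interval covers counting error only, not the error of dividing reads. Of 174 antisense RNAs with 1 CPM, 1 was higher by the rule (0.197% of 13199 genes overall) and 1 lower (0.273% overall), so each count is a single gene. None of the 220 partner genes with 1 CPM passed it, beside 0.47% of all genes in either direction.

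PHLDA1-AS1 had 5.11 TPM in NT, 1.90 in CON and 14.5 in GSK484, from counts of 118, 62.2 and 378. It was thus lowest in CON and highest in GSK484, with the untreated cells between them. PHLDA1, which codes for a protein with a pleckstrin homology-like domain tied to cell death and survival, had 58.9, 60.3 and 60.01 TPM from 28168, 40054 and 31529 counts. The log2 fold of PHLDA1-AS1 for GSK484 against CON was 2.82, with a counting interval of 2.45 to 3.25, and that of PHLDA1 was -0.12. Summed over the pair the log2 fold was -0.10.

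As a share of the pair's counts PHLDA1-AS1 made up 0.417% in NT (exact 95% interval 0.345% to 0.499%), 0.155% in CON (0.119% to 0.198%) and 1.18% in GSK484 (1.07% to 1.31%). These intervals do not overlap. Since 97.2% of the RNA lies within PHLDA1 exons and the counts of both genes were divided, all of these shares are small parts of a common pool of reads. Whether the difference came from the RNA or from the division of PHLDA1 reads was not tested.

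ELF3-AS1 had 4.17 TPM in NT, 3.99 in CON and 2.19 in GSK484, from counts of 126, 176 and 73.9. ELF3, an ETS transcription factor of epithelial cells, had 105, 119 and 82.8 TPM, so both genes of the pair were lowest in GSK484. The log2 fold for GSK484 against CON was -1.02 (-1.43 to -0.62) for ELF3-AS1 and -0.61 (-0.65 to -0.57) for ELF3. The fold of ELF3-AS1 was just past the minimum of 2, and its call was lost with total counts in place of TMM scaling (-0.98), with deposited TPM (-0.84) and with a GC and length trend removed (-0.83). Exons of ELF3 cover 11.9% of ELF3-AS1, and both genes had divided counts.

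**Figure D3:**
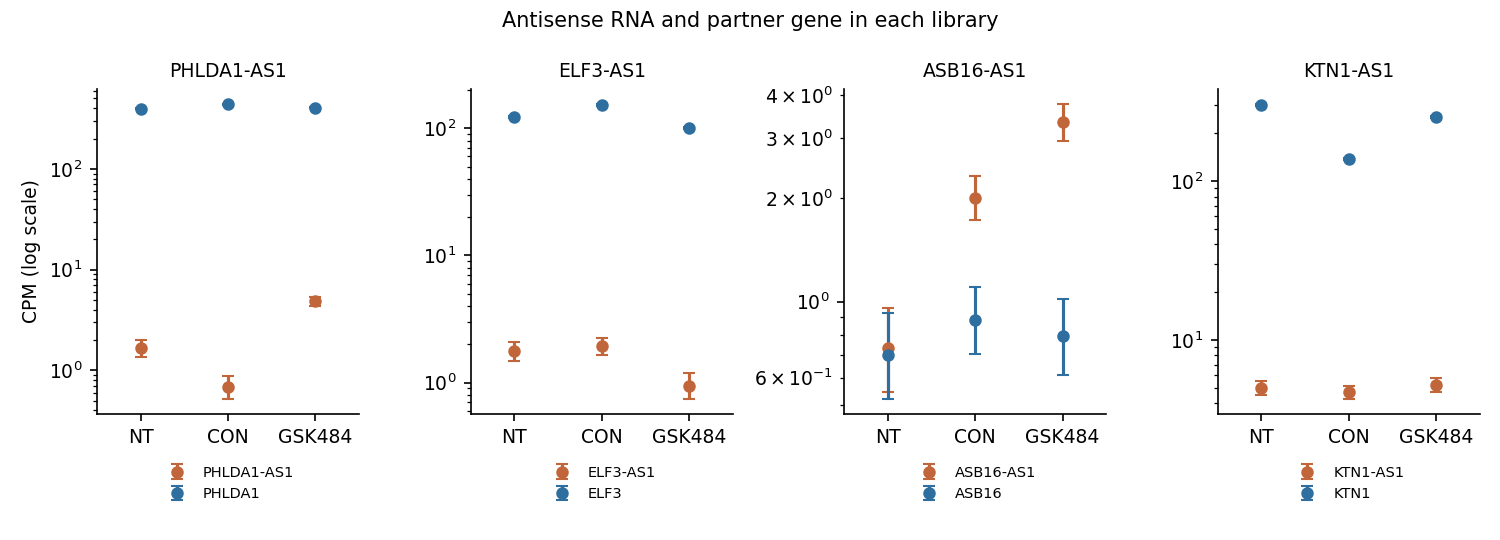
CPM (vertical, log scale with its own range in each panel) in the NT, CON and GSK484 libraries for 4 pairs, antisense RNA in orange and partner in blue. Bars are exact 95% Poisson counting intervals, often smaller than the points. PHLDA1-AS1 ranges from 0.68 to 4.85 CPM and PHLDA1 from 395 to 439 CPM, and KTN1 is lowest in CON while KTN1-AS1 lies between 4.69 and 5.23 CPM.

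By counting error alone, 16 antisense RNAs (9.20%) were higher in GSK484, 39 (22.4%) lower and 119 within it, beside 26.9% higher and 27.4% lower over all genes. With a median of 3.07 CPM these RNAs give wide intervals, and the median distance from estimate to bound was 0.25 on the log2 scale. The log2 folds of 163 of the 174 lay within 0.5 of 0. Their median was -0.07, beside -0.01 over all genes compared, and it changed sign to 0.02 once a trend of fold on GC content and length was removed. Of the 53 with whole counts 10 were lower, none higher and none past the rule of size. Among these 10 was FGD5-AS1 with a log2 fold of -0.15 (-0.22 to -0.07), or -0.24 with the trend removed, and KRT10-AS1 with -0.28 (-0.41 to -0.16). ZNF674-AS1, named for a zinc finger gene, was at -0.48 (-0.79 to -0.18). PRKCZ-AS1, named for an atypical protein kinase C gene, was at -0.49 (-0.85 to -0.15).

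Few pairs differed in both of their genes. For GSK484 against CON, both genes differed beyond counting error in 20 of 148 pairs, with the same sign in 15, of which 13 were lower in GSK484, and opposite signs in 5. By deposited TPM 12 of the 20 had the same sign. Across the 148 pairs r of the log2 folds was 0.07, a description of genes measured in the same 2 libraries. The 5 opposite pairs were those of PHLDA1-AS1, ZBTB11-AS1, TRIM52-AS1, STARD7-AS1 and TUBA1B-AS1, and all of them had divided counts. Division was not particular to these pairs. Of the 20 pairs only 1, of the same sign, had whole counts in both genes. All 15 of the same sign had overlapping exons, as did 18 of the 20 and 118 of the 148 pairs compared.

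ZBTB11-AS1 had 2.76 CPM in NT, 4.38 in CON and 2.26 under GSK484, while ZBTB11, a zinc finger transcription factor gene, had 26.9, 16.3 and 22.8 CPM. The antisense RNA was highest and the partner lowest in CON, and the log2 folds for GSK484 against CON were -0.95 (-1.22 to -0.69) and 0.48 (0.38 to 0.58). TRIM52-AS1 had 3.42, 4.49 and 3.52 CPM, and TRIM52 1.70, 1.25 and 1.83 CPM, again with CON as the extreme in both. Their log2 folds were -0.35 and 0.55, and that of TRIM52-AS1 was -0.16 with the trend removed. STARD7-AS1 was at 0.40 (0.05 to 0.75) beside -0.05 for STARD7, a phosphatidylcholine transfer protein gene.

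**Figure D4:**
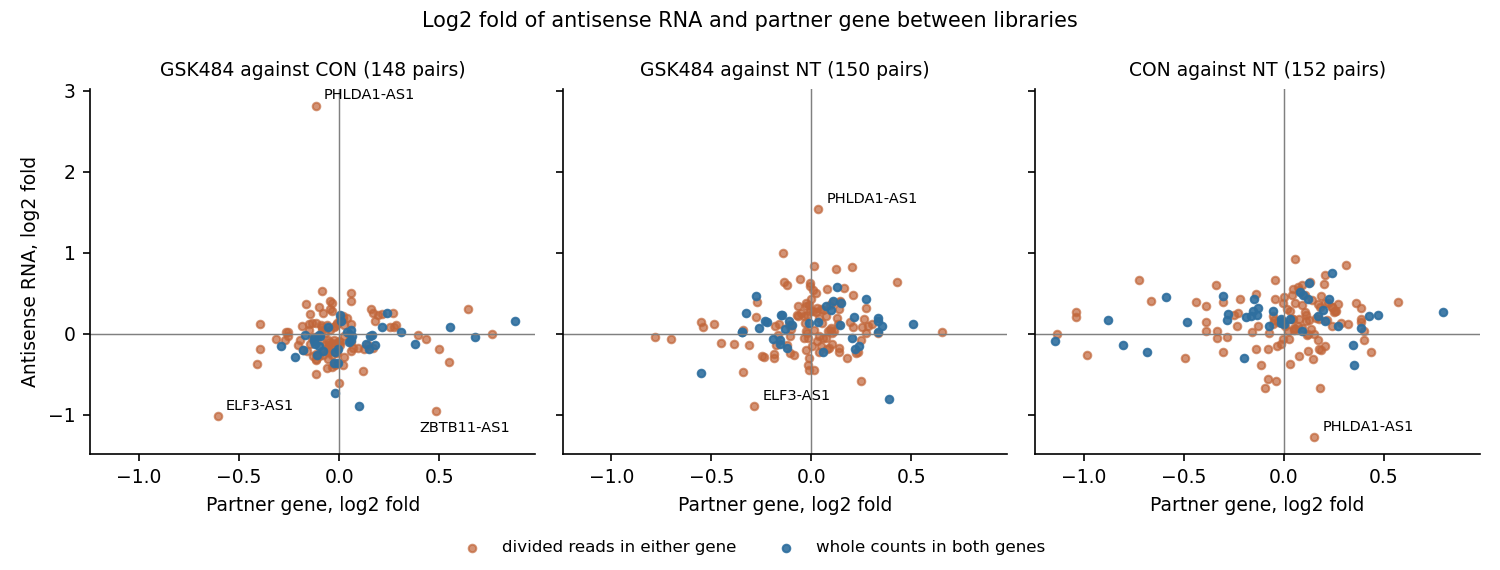
Log2 fold of each antisense RNA (vertical) against that of its partner (horizontal) in the 3 comparisons, for pairs in which both genes reached 1 CPM. Blue points have whole counts in both genes and orange points do not. The points gather around the horizontal line at 0 without a slope, and PHLDA1-AS1 stands apart in each panel. The 3 panels share libraries.

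The inhibitor library was next compared with that of untreated cells. PHLDA1-AS1 and ASB16-AS1 were higher in GSK484 by the rule of size and none was lower, among 176 antisense RNAs compared, beside 0.273% higher and 0.28% lower of 13209 genes overall. None of 221 partners passed it (0.553% overall in either direction). The log2 fold of PHLDA1-AS1 was 1.54 (1.25 to 1.86), and that of PHLDA1 0.03.

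ASB16-AS1 had counts of 52.2 in NT, 183 in CON and 260 in GSK484, beside 49.9, 80.8 and 61.7 for ASB16, a gene of the ankyrin repeat and SOCS box family. The antisense RNA was lowest in NT, where it made up 51.0% of the pair's counts (40.9% to 61.0%), and highest in GSK484, where it made up 81.0% (76.3% to 85.1%). Its log2 fold for GSK484 against NT was 2.18 (1.76 to 2.65). In TPM the same RNA had 2.26 in NT, 2.5 in CON and 3.67 in GSK484. The log2 difference between GSK484 and NT was then 0.68, while its deposited effective length went from 380 bases in NT to 869 in CON and 1063 in GSK484. The call thus held in counts and not in TPM. Its counts were divided, and 31.1% of its exon bases lie over ASB16 exons.

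Beyond counting error 47 antisense RNAs were higher in GSK484 than in NT and 19 lower, beside 27.3% and 29.5% over all genes. The median log2 fold was 0.10, beside -0.00 over all genes. Of 53 with whole counts 11 were higher and 4 lower, none by the rule of size. ELFN1-AS1 was at 0.34 (0.20 to 0.49) and MORC2-AS1, named for a chromatin ATPase gene, at 0.39 (0.18 to 0.60). FGD5-AS1 was at -0.19 (-0.27 to -0.11) and OTUD6B-AS1 at -0.17 (-0.32 to -0.03). With the trend removed these came to 0.18 for ELFN1-AS1, 0.37 for MORC2-AS1, -0.063 for FGD5-AS1 and 0.00 for OTUD6B-AS1. Both genes of a pair differed in 32 of 150 pairs, 24 with the same sign (22 by deposited TPM) and 8 with opposite signs.

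CON against NT shows how far the control compound library stood from the untreated one. ASB16-AS1 was higher in CON by the rule of size and PHLDA1-AS1 lower, among 180 antisense RNAs compared, beside 0.333% higher and 1.35% lower of 13221 genes overall. Their log2 folds were 1.44 (1.01 to 1.93) and -1.27 (-1.75 to -0.83). By deposited TPM they were 0.14 and -1.38, so the call of ASB16-AS1 again held in counts and not in TPM. Since this comparison shares its libraries with both others, the low value of PHLDA1-AS1 in CON also enters its fold between GSK484 and CON. Beyond counting error 70 were higher and 16 lower, or 38.9% and 8.89%, beside 35.5% and 29.4% over all genes. The median log2 fold was 0.18, beside 0.03 over all genes, and 0.07 after removal of the trend on GC content and length. The G or C content, as a median, was 50.9% for the antisense RNAs and 48.4% for all genes compared.

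Of 220 partner genes 4 passed the rule of size, all lower in CON, a share of 1.82% near the 1.35% of all genes (1.68% in either direction). KTN1, which codes for kinectin, an endoplasmic reticulum protein that binds the motor kinesin, had 124 TPM in NT, 54.6 in CON and 105 in GSK484. Its log2 fold for CON against NT was -1.14 (-1.17 to -1.11). KTN1-AS1 had 3.87, 3.62 and 4.16 TPM in the same order, with a log2 fold of -0.09 (-0.29 to 0.12). Both genes had whole counts although 2.20% of the exon bases of KTN1-AS1 overlap KTN1, and the printed stretch of 114 bases separates their RefSeq starts. KTN1 was lowest in CON and stood between the others in GSK484, with a log2 fold of -0.26 for GSK484 against NT, while the antisense RNA differed by less than counting error.

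ARHGAP5, a GTPase-activating protein gene, had 58.2 CPM in NT, 26.5 in CON and 35.8 under GSK484, while ARHGAP5-AS1 had 5.05, 5.05 and 4.82 CPM. ERCC6L2, a helicase-like gene of DNA repair, had 9.26, 4.50 and 7.65 CPM beside 3.48 to 4.03 CPM for ERCC6L2-AS1. BAZ2B, which codes for a bromodomain protein of chromatin, had 7.96, 3.87 and 5.47 CPM beside 1.20, 1.45 and 1.27 CPM for BAZ2B-AS1. In all 4 pairs the partner was lowest in CON and the interval of the antisense RNA included no difference. The log2 folds of the partners were -1.13 for ARHGAP5, -1.04 for ERCC6L2 and -1.04 for BAZ2B. With the trend of fold on GC content and length removed, the 4 values lay between -0.54 and -0.73 and none passed the rule.

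Both genes of a pair differed between CON and NT in 51 of 152 pairs, 35 of them with both higher in CON, 4 with both lower and 12 with opposite signs. By deposited TPM 27 of the 51 had the same sign, in place of 39. Of 8 such pairs in which both genes had whole counts, all 8 were higher in CON. Among all 56 antisense RNAs with whole counts compared, 19 were higher in CON beyond counting error and 1 lower. The 8 pairs were not counted with the trend removed, and no link within pairs is read from their direction. Head-to-head pairs could be read with little division, since 14 of the 15 antisense RNAs had whole counts. Among these, OTUD6B-AS1 was at -0.14 (-0.27 to 0.00) while OTUD6B was at -0.80 (-0.96 to -0.64). With the trend on GC content and length removed they were at 0.25 and -0.28, so the antisense RNA changed sign. SCAMP1-AS1 was at 0.17 (-0.09 to 0.43) beside -0.88 (-0.99 to -0.77) for SCAMP1, a secretory carrier membrane protein gene, and these became 0.01 and -0.27 with the trend removed. SCAMP1-AS1, XRN2, EXOSC1, EXOSC5, SBNO1-AS1, LIPE-AS1, ABHD15-AS1 and TIAM1-AS1 were named after their values were seen.

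Of 16 antisense RNAs listed for their place in published work, 14 were found under the listed name. EIF3J-AS1 was not, nor was RPARP-AS1, which now has the symbol C10orf95-AS1 and stood between 8 and 8.76 TPM. CDKN2B-AS1 and ZEB2-AS1 had a count of 0 in every library, and ZEB1-AS1 and GATA3-AS1 stayed below 0.6 TPM. For GSK484 against CON 10 reached 1 CPM, of which 6 were lower beyond counting error, none higher and none by the rule of size, with a median log2 fold of -0.17. Over all genes 27.4% were lower, and over the antisense RNAs compared 22.4%. TMPO-AS1, named for a nuclear lamina gene, had 6.56 CPM in NT, 9.24 in CON and 7.13 under GSK484, a log2 fold of -0.37 (-0.53 to -0.22). MAPKAPK5-AS1 had 11.1, 14.4 and 13.02 CPM (-0.14), SPINT1-AS1 14.1, 17.1 and 15.5 CPM (-0.14), and MCM3AP-AS1 4.22, 4.42 and 3.68 CPM (-0.26). TMPO-AS1, MAPKAPK5-AS1 and SPINT1-AS1 were highest in CON and lowest in NT. With the trend removed the log2 fold for GSK484 against CON was 0.057 for SPINT1-AS1 and -0.022 for MAPKAPK5-AS1, and that of SPINT1-AS1 for CON against NT changed sign from 0.28 to -0.068. LOXL1-AS1, HOXA-AS2, FOXP4-AS1 and OIP5-AS1 differed between GSK484 and CON by less than counting error. With the trend removed OIP5-AS1 went from 0.027 to -0.19 (-0.23 to -0.14), which is beyond counting error.

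Among 20 genes of nuclear RNA decay, which act on RNAs of this kind, none passed the rule of size in any comparison. For GSK484 against CON 8 were higher and 5 lower beyond counting error, beside 26.9% and 27.4% over all genes, and 8 and 3 with the trend on GC content and length removed. The median log2 fold was 0.05. ZFC3H1, a factor that brings polyadenylated nuclear RNAs to the exosome, had 10.6 TPM in NT, 5.73 in CON and 8.08 in GSK484. MTREX, the helicase of the nuclear exosome, had 29.4, 19.8 and 25.3 TPM, and DIS3, an exosome nuclease, 13.2, 7.42 and 10.4 TPM. All of these were lowest in CON and highest in NT, with log2 folds for GSK484 against CON of 0.41, 0.40 and 0.37, or 0.26, 0.24 and 0.16 with the trend removed. XRN2, a nuclear exonuclease, was at -0.20 (-0.25 to -0.15), EXOSC1 at -0.16 and EXOSC5 at -0.14, both exosome subunits. With the trend removed XRN2 was at -0.29, EXOSC5 at -0.059 and EXOSC1 at -0.062 (-0.14 to 0.012), the last within counting error. MPHOSPH6, an exosome-associated protein, had 49.1, 40.9 and 54.1 TPM.

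Of 15 genes that edit, cut or sense double-stranded RNA, 8 were higher in GSK484 than in CON beyond counting error and 1 was lower. Over all genes 26.9% were higher and 27.4% lower. None of the 15 passed the rule of size. With the trend removed 5 were higher and 3 lower. RIGI and IFIH1, sensors of double-stranded RNA in the cytoplasm, had log2 folds of 0.44 (0.31 to 0.57) and 0.42 (0.27 to 0.57), or 0.27 and 0.34 with the trend removed. RIGI stood at 4.40 TPM in NT, 2.70 in CON and 3.91 in GSK484. IFIH1 stood at 3.78, 2.45 and 3.40 TPM, so CON was the low library for both. DICER1, which cuts double-stranded RNA, had 4.85, 3.52 and 3.92 TPM, and its log2 fold went from 0.31 to 0.065 with the trend removed. OAS1, an interferon-induced enzyme, was the 1 gene lower before the trend was removed, with 11.0, 11.3 and 9.10 TPM and a log2 fold of -0.47 (-0.60 to -0.35).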

How the data were processed

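The authors deposited 1 table per library with expected counts, TPM and FPKM for each gene, per the file headers. The deposited expected counts estimate the reads of each gene and need not be whole, and the deposited TPM values account for effective length. RSEM and hg19 are named in the submitters' processing notes. For RSEM's version and settings, the aligner and the annotation release, the sources used here give nothing. FPKM values were not used.

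The antisense RNAs, lists and rules were chosen with earlier results of these data known. Symbols came from a gene name table by gene ID (49995 of 56632 IDs). Partners were matched by symbol. Pair geometry used GENCODE 29 transcripts (GRCh38, another build than the deposited one), of which 177728 of 195264 deposited transcript IDs were found. CPM values were computed from expected counts after TMM scaling (R 4.3.3, edgeR 4.0.16), with factors of 1.01 (NT), 0.98 (CON) and 1.01 (GSK484). Log2 folds used a prior count of 0.5. Ratio and share intervals are exact binomial (Clopper-Pearson) at 95% on expected counts rounded to whole numbers, and PCR copies could not be told from molecules. The fold calculation was tested on simulated data.

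Named were the antisense RNAs or partners past the rule of size, the 12 highest by TPM, the 6 highest and 6 lowest ratios to the partner, the 10 highest with whole counts, the 6 most divergent pairs, the threshold neighbours, a list of studied antisense RNAs and up to 4 genes per pathway list. Alternatives were total counts, DESeq2 1.42.0 size factors, deposited TPM, a prior count of 2, CPM minimums, a TPM minimum in every library or on the mean, whole counts only, and removal of a GC and length trend fitted on 8656 protein-coding genes. Values of a few genes that these rules name are not reported here.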

Additional observations from a re-analysis of the deposited data

How the results depend on the processing

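Each group had 1 library, so depth limits every value only through counting error, and differences between cultures cannot be seen. No paired analysis was possible because each group had 1 library. Counts of antisense RNAs past the rule of size were 2 in each comparison. With deposited TPM, a fold of at least 2 and 1 TPM were asked for, with no counting interval. By that measure 14 of 253 passed for GSK484 against CON, 15 of 249 for GSK484 against NT and 17 of 253 for CON against NT. Under the rule of size with no CPM minimum the counts were 18, 16 and 18 in the same order. Shares over all genes were not computed for these settings, so nothing particular to antisense RNAs is read from these counts. With genes of whole counts only the counts were 0, 0 and 0. For GSK484 against CON the count was 1 with total counts, with a CPM minimum of 2 and with the GC and length trend removed, since ELF3-AS1 no longer passed. For CON against NT it was 1 with a CPM minimum of 2, since PHLDA1-AS1 no longer passed. PHLDA1-AS1 stayed higher in GSK484 than in CON under the 7 alternatives computed for it, with log2 folds from 2.78 to 2.98. The changes of CPM minimum among them cannot alter its fold, nor can a TPM minimum in every library or on the mean. Its counts were not whole, and every alternative starts from the same division of reads, so that division is not checked by them. Pairs of the same sign numbered 12, 22 and 27 by deposited TPM in place of 15, 24 and 39, in the order of comparisons above. For several named genes the fold with the trend removed stands beside the main one. Partner genes for GSK484 against CON were 1 by the deposited TPM measure and 4 past the rule with no CPM minimum, in place of 0. For GSK484 against NT, 2 partner genes passed with no CPM minimum. For CON against NT the 4 partners came to 1 with whole counts only and to 0 with the trend removed. The median log2 fold of the antisense RNAs for GSK484 against CON changed sign from -0.07 to 0.037 with deposited TPM, where all genes had 0.095, and to 0.016 with the trend removed. For CON against NT the median of 0.18 became 0.13 with total counts, 0.074 with deposited TPM and 0.068 with the trend removed. Apart from fewer genes entering under a stricter minimum or the whole-count limit, the cause of these shifts was not tested.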

Other observations

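A few antisense RNAs below 1 CPM had uneven values between libraries. RNF185-AS1 had a count of 15.2 in GSK484 and 0 in both other libraries, and all of its exon bases lie over RNF185 exons. STIM2-AS1 had 1.20 TPM in NT, 0.10 in CON and 0.00 in GSK484. CFLAR-AS1 had 0.06, 1.36 and 0.72 TPM, and TM4SF19-AS1 1.06, 1.05 and 0.17 TPM. These RNAs were chosen after their values were seen, and no fold is drawn from such counts.

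HOX cluster antisense RNAs had no single partner. HOXA-AS2 stood at 1.87 TPM in NT, 1.82 in CON and 2.29 in GSK484, HOXA-AS3 at 1.38, 1.44 and 1.31, and HOXC-AS1 at 0.82, 2.68 and 1.77. VIM-AS1, whose GENCODE 29 start lies 1361 bases from that of the intermediate filament gene VIM, had 2.45, 2.52 and 3.19 TPM. VIM had 227, 201 and 248 TPM, and both were highest in GSK484. With the trend removed their log2 folds for GSK484 against CON were 0.087 for VIM-AS1 and 0.24 for VIM. VIM-AS1 was named by none of the rules, and nothing is read from the shared direction.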
